A study of Rattus norvegicus with 2 samples.

Results

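The genes described here are the extracellular components of Wnt signalling in fetal rat colon: the Wnt ligands, their Frizzled (Fzd) receptors, the co-receptors Lrp5 and Lrp6, and the secreted inhibitors of the secreted Frizzled-related protein (Sfrp), Dickkopf (Dkk) and Wif1 types. Members were taken by gene symbol: every Wnt, Fzd or Sfrp symbol followed by its number, together with Dkk1, Dkk2, Dkk3, Wif1, Lrp5 and Lrp6. This gave 38 of 28116 gene symbols, each with 1 gene identifier: 19 ligands, 9 Frizzled receptors, 2 co-receptors, 4 Sfrp genes, 3 Dkk genes and Wif1. The samples were 2 single-cell libraries of dissociated colon from wild-type rat fetuses at embryonic day E19.5, made on the 10x Genomics droplet platform after red blood cells had been lysed. The control library came from fetuses of control dams and the maternal obesity library from fetuses of dams that were obese during pregnancy. With 1 library per group there was no replicate check, so differences between libraries carry no test, and every interval below is a 95% interval that covers counting error only. The number of fetuses behind each library and their sex were not given in the sources used here.

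Wnt proteins are short-range secreted signals. Porcn attaches a lipid to them and Wls carries them to the cell surface, where they bind Frizzled receptors. With Lrp5 or Lrp6 as co-receptor, the canonical branch stabilises beta-catenin and maintains stem cells and crypt progenitors in the intestine, whereas ligands such as Wnt5a act mainly through the receptors Ror2 and Ryk and shape the elongation and layering of the gut tube. Sfrp proteins and Wif1 bind the ligands themselves, and Dickkopf proteins such as Dkk1 and Dkk2 bind Lrp5 and Lrp6.

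The ligands with the most unique molecular identifiers (UMIs, each a counted mRNA molecule) were Wnt5a, Wnt11 and Wnt4. Their promoters are shown because the results turn on these ligands. Each run is the 250 bases before the transcript start annotated by RefSeq on the rat assembly GRCr8, 5′ to 3′ on the gene's strand, which is the plus strand in all 3 cases. They lie at chr5:154797200-154797449 for Wnt4 (ENSRNOG00000013166), chr16:3703415-3703664 for Wnt5a (ENSRNOG00000015618) and chr1:162549110-162549359 for Wnt11 (ENSRNOG00000015982). Capitals mark TGGGTGG, the reverse complement of CCACCCA, the core recognised by the GLI factors of Hedgehog signalling.
Wnt4: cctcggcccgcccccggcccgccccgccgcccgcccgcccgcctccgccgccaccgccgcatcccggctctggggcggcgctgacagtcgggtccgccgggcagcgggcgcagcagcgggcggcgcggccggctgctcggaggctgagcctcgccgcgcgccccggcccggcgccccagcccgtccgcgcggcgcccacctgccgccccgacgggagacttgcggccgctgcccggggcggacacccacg
Wnt5a: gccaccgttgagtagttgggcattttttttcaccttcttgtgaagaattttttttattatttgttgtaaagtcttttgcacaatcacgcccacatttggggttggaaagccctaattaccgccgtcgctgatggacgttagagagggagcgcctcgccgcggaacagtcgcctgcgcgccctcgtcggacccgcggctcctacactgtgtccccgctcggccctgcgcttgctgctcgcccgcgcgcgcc
Wnt11: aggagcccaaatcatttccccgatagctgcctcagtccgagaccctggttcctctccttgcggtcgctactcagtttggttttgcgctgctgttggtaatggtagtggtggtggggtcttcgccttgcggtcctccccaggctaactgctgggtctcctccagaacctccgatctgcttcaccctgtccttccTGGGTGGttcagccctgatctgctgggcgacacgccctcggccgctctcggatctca
Of the 38 members, 26 had a promoter of this length in the RefSeq table. On either strand, the TCF/LEF core CTTTGAT was in none of the 26, CTTTGAA was in 2 (Dkk1 and Wnt8a), and CCACCCA was in 2 (Wnt10a and Wnt11). Among all 33469 promoters the shares with these motifs were 3.15%, 4.68% and 7.93%. A match of letters is a description and not a binding site.

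The control library held 6830 cells and the maternal obesity library 7083 after filtering, with median depths of 9852 and 9958 UMIs per cell. Cells were clustered without using the members or other Wnt pathway genes, and 13 classes were named from marker lists, with the suffix "-like" to mark rebuilt names. The classes used most are epithelial-like cells (2722 control and 1356 maternal obesity cells), fibroblast-like cells (132 and 430), subepithelial fibroblast-like cells (88 and 380), smooth muscle-like cells (746 and 493), cells like the interstitial cells of Cajal (ICC-like, the pacemaker cells of gut muscle, 231 and 341), neurons (enteric neuron-like, 342 and 441 cells) and glia (enteric glia-like, 491 and 501 cells) of the gut wall. In 8 of the 13 classes every marker in the table was above its level in all other cells; among the exceptions were F3, Sox6 and Hsd17b2 for the subepithelial class, Thbs4 for ICC-like, Fabp7 for glia, Gzmb for lymphoid and Hbz for erythroid-like cells. Unnamed mesenchymal clusters took up 498 control and 1213 maternal obesity cells and are referred to by number. Haemoglobin transcripts made up 3.52% of control UMIs and 10.0% of maternal obesity UMIs, and over the 7 classes compared between libraries the mitochondrial share ran from 1.95% to 2.79% in control and from 2.79% to 3.37% in maternal obesity cells. The libraries shared 130 barcodes, of which 78 passed as cells in both.

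Levels are given as CPM, counts-per-million, that is the UMIs of a gene scaled to the summed UMIs of all cells of that class in that library. Paired values are in the order control, maternal obesity. They compare cell classes for the same gene, since the molecules were not scaled by transcript length and levels of different genes are not ordered here. Erythroid-like cells (median depths 18236 and 20332.5 UMIs) and macrophage-like cells (6783.5 and 7708.5 UMIs) served as a guide to free RNA, the transcripts that leak into droplets of other cells. Wnt5a, for example, was at 0 UMIs in both sets of erythroid-like cells and in 0.775% and 0.505% of macrophage-like cells. Haemoglobin made up 82.3% and 89.2% of erythroid-like UMIs, so the CPM of any other gene, leaked or not, was lowered there.

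The members gave 14437 UMIs in control and 20682 in maternal obesity cells. Dkk1, Wnt3a and Wnt8a were at 0 UMIs in both libraries, 15 members had from 2 to 86 UMIs in all, and 20 had at least 100. The 20 well-counted members were the ligands Wnt4, Wnt5a, Wnt5b, Wnt9a, Wnt11 and Wnt16, the receptors Fzd1 to Fzd7, both co-receptors, Sfrp1, Sfrp2, Dkk2, Dkk3 and Wif1. The heat map of ligand levels shows mesenchymal classes and mesothelium-like cells, the outer lining of the gut, with the highest levels.

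**Figure D1:**
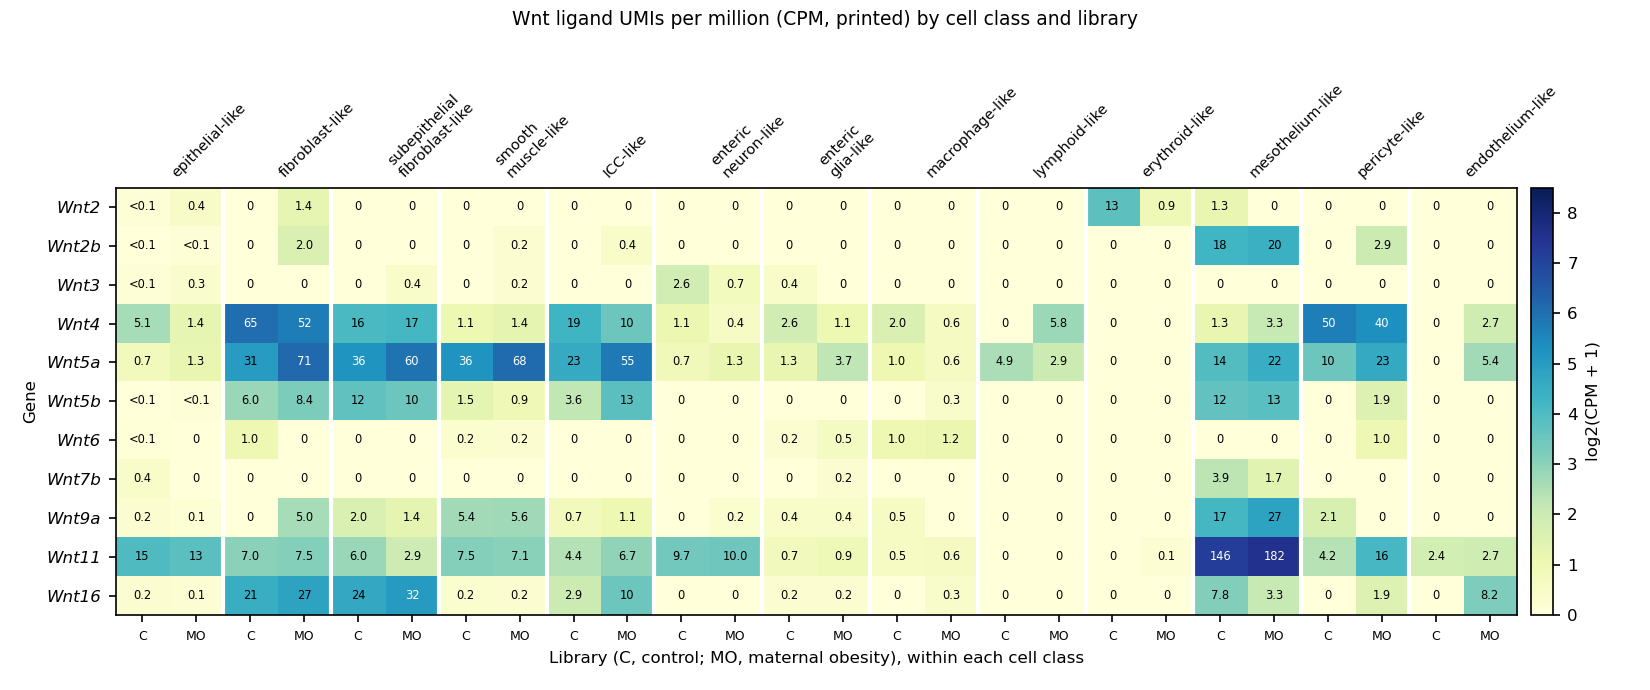
Wnt ligands with at least 20 UMIs (rows) in 13 cell classes (columns, control C beside maternal obesity MO). Colour is log2(CPM + 1) and the printed number is CPM; Wnt11 is at 146 and 182 CPM in mesothelium-like cells, and Wnt5a fills the mesenchymal columns.

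Wnt5a, the main non-canonical ligand of the developing gut mesenchyme, was spread over all mesenchymal classes in both libraries. In smooth muscle-like cells it was at 35.7 CPM in control (interval 32.0 to 39.7) and 68.0 CPM in maternal obesity (61.8 to 74.7). The fibroblast-like class had 30.9 CPM and 71.3 CPM, the subepithelial class 35.7 and 59.6 CPM, and ICC-like cells 22.5 and 55.0 CPM. The 4 control intervals overlapped one another, so their order could not be resolved at this depth. Outside the mesenchyme Wnt5a was low, with 0.721 and 1.28 CPM in epithelial-like cells and 0.745 and 1.33 CPM in neuron-like cells, near the 1.00 and 0.584 CPM of macrophage-like cells.

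Within the mesenchyme Wnt5a also varied between clusters of a class. Fibroblast-like cluster M6, led by Shisa3 and Col14a1, was at 44.5 CPM in control cells against 125 CPM in maternal obesity cells, while fibroblast-like cluster M8, led by Clec3b and Fmo1, was at 24.0 and 29.8 CPM. Smooth muscle-like cluster M5 went from 38.7 CPM in control to 113 CPM in maternal obesity, and M4 from 27.0 to 36.3 CPM. Among 15 mesenchymal clusters large enough in both libraries, the Wnt5a value in maternal obesity exceeded that in control in 13.

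Wnt4, a ligand known from the development of kidney and gonad mesenchyme, marked other cells of the same compartment. It was highest in fibroblast-like cells, at 64.8 CPM in control cells against 52.0 CPM in maternal obesity. Cluster M8 gave 64 of the 65 control and 182 of the 186 maternal obesity UMIs. There Wnt4 was at 96.0 and 90.3 CPM and in 42.6% and 48.9% of cells, the highest levels of the mesenchymal clusters in both libraries. Pericyte-like cells, which wrap small vessels, followed with 50.2 and 39.6 CPM. In the epithelium Wnt4 was at 5.08 and 1.38 CPM and had its highest levels in the clusters led by Atp12a and Fxyd4, with 22.0 and 11.8 CPM in E10 (99 and 5 UMIs) and 22.5 and 15.2 CPM in E11 (37 and 2 UMIs). In maternal obesity, where E10 and E11 held 15 and 9 cells, more Wnt4 UMIs came from E0 (16) and E4 (11). The fibroblast-like clusters therefore differed in their ligands: M6 had 2.97 and 2.56 CPM of Wnt4 from 1 and 4 UMIs, and M8 had the smaller Wnt5a values.

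Wnt11, a ligand of convergent extension movements, had its highest level in mesothelium-like cells, at 146 CPM (121 to 176) in control cells against 182 CPM (149 to 219) in maternal obesity, from 69 and 46 cells. It was detected in 55.1% and 63.0% of them. Epithelial-like cells had 15.1 and 13 CPM, and because they were many they gave 794 of 1136 control and 508 of 929 maternal obesity Wnt11 UMIs. Epithelial cluster E4, led by Rbp4 with Afp, had 27.6 CPM (22.8 to 33.0) and 21.5 CPM (17.0 to 26.9), and the Shh-led cluster E3 had 20.1 and 11.8 CPM. In all 9 epithelial clusters with enough cells the maternal obesity value was the smaller, but over the class the ratio of maternal obesity to control was 0.863, short of the 1.5-fold used for a call.

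Wnt16, Wnt5b and Wnt9a were sparser. Wnt16 was at 23.8 and 31.6 CPM in subepithelial fibroblast-like cells and at 20.9 and 26.8 CPM in fibroblast-like cells, with 0 and 1 UMI in macrophage-like cells. Wnt5b, a close paralogue of Wnt5a, had 11.9 and 10.4 CPM in the subepithelial class and 11.7 and 13.4 CPM in mesothelium-like cells. Wnt9a was at 5.40 and 5.59 CPM in smooth muscle-like cells and at 16.8 and 26.7 CPM in mesothelium-like cells, the latter from 13 and 16 UMIs.

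The canonical ligands of the adult crypt niche were nearly undetected. Wnt2b had 16 and 26 UMIs, of which 14 and 12 were in mesothelium-like cells, where they gave 18.1 and 20.03 CPM. Wnt3, the ligand of Paneth cells in the adult small intestine, had 14 and 15 UMIs in all cells. Wnt2 had 32 and 35 UMIs, Wnt6 had 9 and 12, and Wnt7b had 22 and 2. Wnt1, Wnt7a, Wnt8b, Wnt9b, Wnt10a and Wnt10b had from 2 to 8 UMIs each over both libraries. A count of 0 in a class still allows up to 3 UMIs, so these ligands were not detectable at this depth in most classes rather than shown to be absent.

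**Figure D2:**
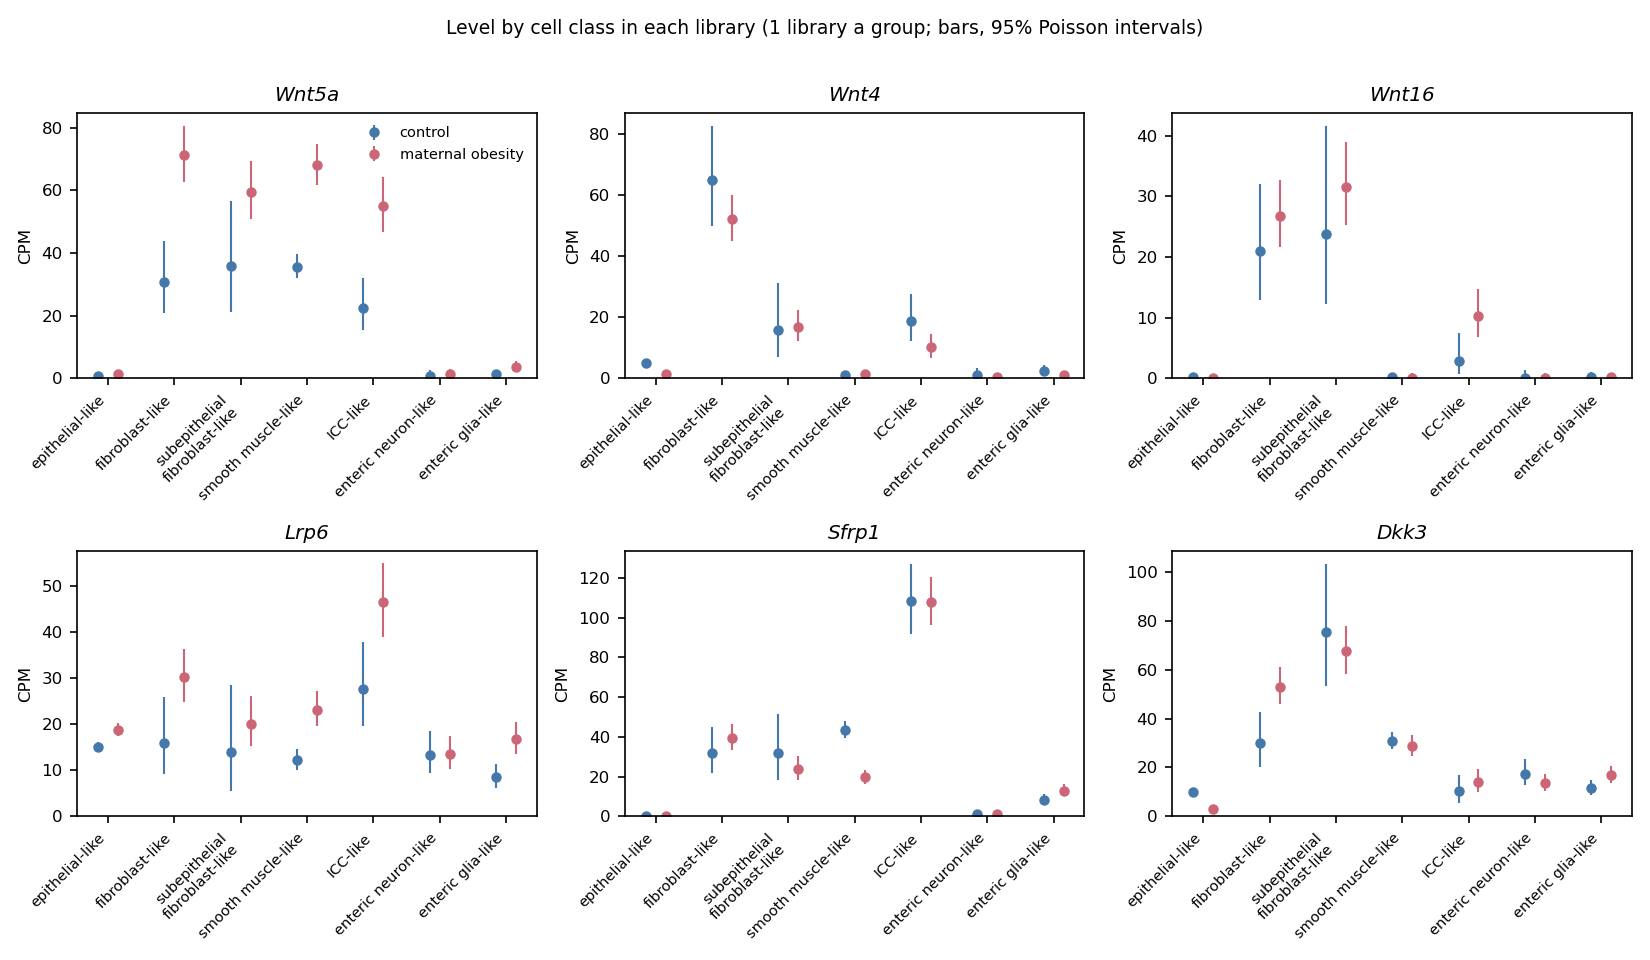
Levels of 6 members (panels) in the 7 classes compared between libraries, in CPM on the vertical axis, with exact Poisson 95% intervals for counting error. Control and maternal obesity points sit side by side; Wnt5a points of maternal obesity lie above those of control in each class shown, and the Sfrp1 points separate in smooth muscle-like cells.

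Frizzled receptors were counted in all 7 main classes, and each receptor had its own distribution over them. Fzd1, a receptor for canonical ligands, was at 71.5 and 56.7 CPM in the subepithelial class, at 51.5 and 70.0 CPM in glia-like cells and at 26.9 and 71.6 CPM in fibroblast-like cells. Within the last, cluster M6 carried it, with 65.3 CPM in control cells against 135 CPM in maternal obesity cells. M6 also had the highest Wnt5a value of the mesenchymal clusters in maternal obesity.

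Fzd3, a receptor needed for axon guidance, was highest in neuron-like cells in both libraries, at 43.2 CPM (35.7 to 51.9) and 68.6 CPM (61.1 to 76.7), ahead of glia-like cells with 28.3 and 32.8 CPM. The intervals of neurons and glia did not overlap in either library. Fzd2 had its highest level in mesothelium-like cells, at 37.6 and 46.7 CPM, followed among the larger classes by mesenchymal ones, with 27.1 and 23.8 CPM in smooth muscle-like, 21.8 and 25.02 CPM in ICC-like and 20.9 and 22.4 CPM in fibroblast-like cells. Fzd4, the receptor through which norrin acts on vessels, reached 26.4 and 68.0 CPM in the 39 and 35 endothelium-like cells and 21.8 and 19.4 CPM in the subepithelial class.

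In the epithelium Fzd6, Fzd1, Fzd5 and Fzd3 were counted with 709, 413, 222 and 205 UMIs in control and 514, 259, 148 and 159 in maternal obesity. Fzd6, a receptor of planar cell polarity, was at 13.4 and 13.2 CPM in epithelial-like cells and in 21.1% and 28.8% of them, and mesothelium-like and endothelium-like cells had from 14.3 to 38.4 CPM. The epithelial progenitor cluster E1, led by Olfm4, had 18.2 and 23.1 CPM of Fzd6. Fzd5, which in mouse intestine transmits canonical signals to Paneth cells, was at 4.21 and 3.79 CPM in epithelial-like cells, and 222 of its 261 control and 148 of its 200 maternal obesity UMIs were epithelial. Fzd7, a receptor of intestinal stem cells in mouse, was low in the epithelium at 1.57 and 2.46 CPM, against 6.45 and 8.70 CPM in smooth muscle-like cells and 9.07 and 13.4 CPM in mesothelium-like cells (7 and 8 UMIs). Fzd9 had 36 and 50 UMIs and Fzd8 had 3 and 9.

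**Figure D3:**
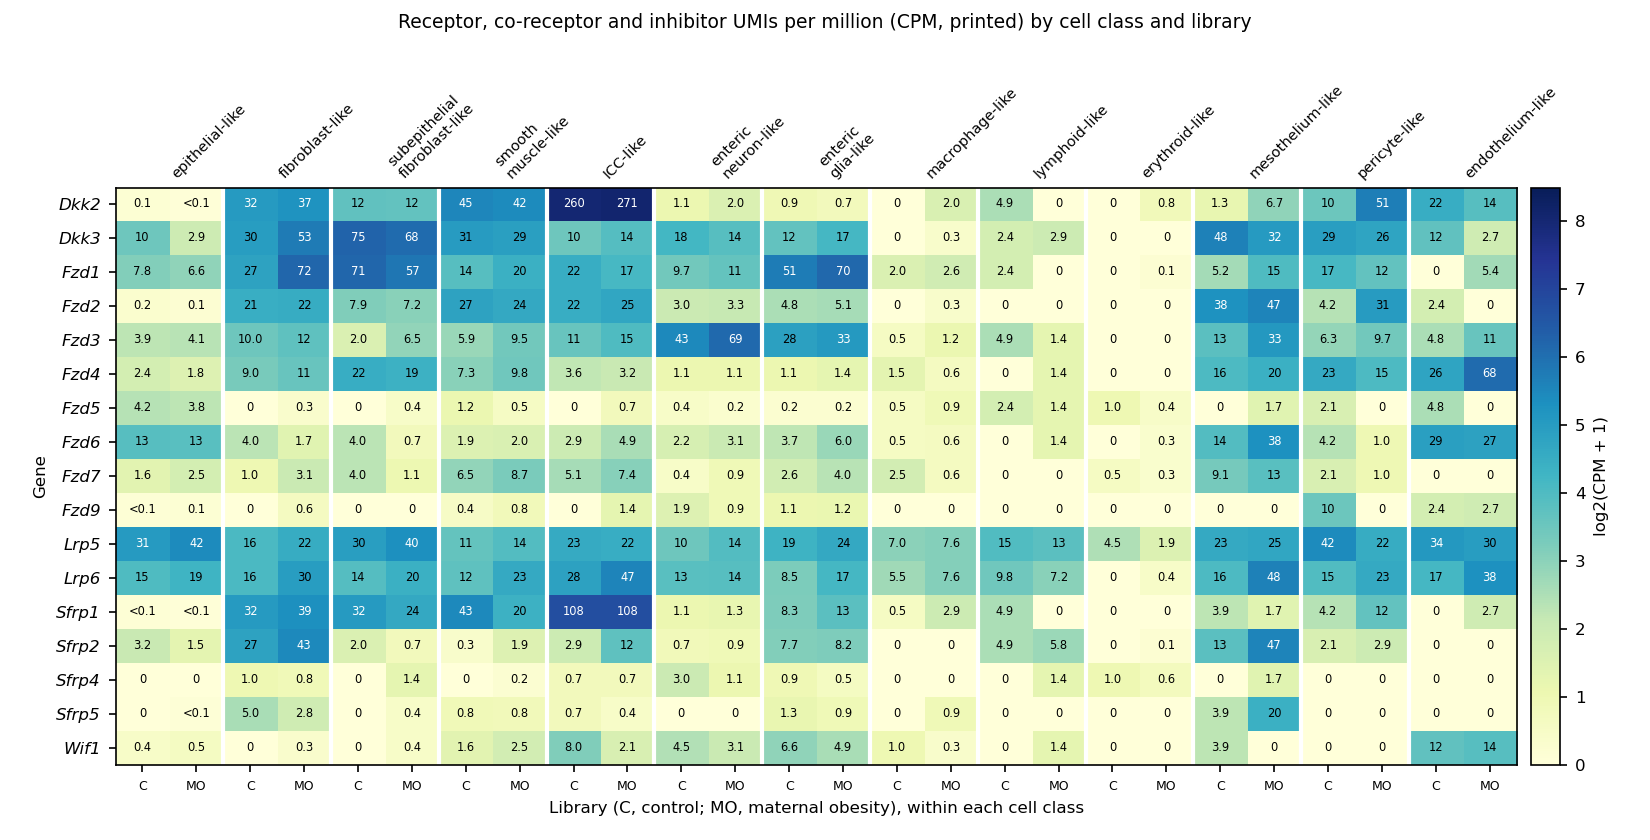
Frizzled receptors, co-receptors and secreted inhibitors with at least 20 UMIs (rows) in 13 cell classes (columns, control C beside maternal obesity MO), with colour as log2(CPM + 1) and CPM printed. Dkk2 stands out in ICC-like cells at 260 and 271 CPM, and Fzd3 in neuron-like cells.

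Lrp5 and Lrp6 were detected in all of the 7 main classes. Lrp5 was at 31.5 CPM (29.97 to 33.01) in control cells against 42.0 CPM (40.0 to 44.0) in maternal obesity epithelial-like cells, against 4.53 and 1.89 CPM in erythroid-like cells. It was found in 38.1% and 56.7% of epithelial-like cells. Depth differed there, with medians of 15959.5 and 23353.5 UMIs, and thinning every cell to 3000 UMIs brought the shares to 9.05% and 12.0%. Among epithelial clusters E7, led by the heat-shock gene Hspa1b, had the most Lrp5, at 68.7 and 106 CPM. Lrp6 was at 15.1 and 18.8 CPM in epithelial-like cells, at 27.6 and 46.5 CPM in ICC-like cells and at 12.2 and 23.1 CPM in smooth muscle-like cells.

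ICC-like cells had the highest summed inhibitor level of the 7 main classes. The summed level of Sfrp, Dkk and Wif1 genes was 391 CPM in control cells against 408 CPM in maternal obesity, and 78.4% and 87.1% of them had at least 1 such UMI. Dkk2 alone was at 260 CPM (234 to 289) and 271 CPM (252 to 291), in 65.8% and 75.1% of ICC-like cells, and in 48.9% and 49.95% after thinning. Smooth muscle-like cells followed at 45.1 and 42.4 CPM of the 10 classes with at least 50 cells per library, while erythroid-like cells had 0 and 0.755 CPM. Several unnamed mesenchymal clusters also carried Dkk2, among them M9, led by the cell-cycle genes Aspm and Cdk1, at 157 and 146 CPM.

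Among the named classes Sfrp1, which binds Wnt ligands in the extracellular space, was highest in the same ICC-like cells at 108 CPM in both libraries. Of all mesenchymal clusters, the unnamed M9 had the highest Sfrp1 level in control, at 120 CPM. In maternal obesity it was the unnamed M7, at 115 CPM. Smooth muscle-like cells had 43.4 CPM (39.3 to 47.8) in control cells against 19.7 CPM (16.4 to 23.5) in maternal obesity. Fibroblast-like cells had 31.9 and 39.4 CPM, whereas epithelial-like cells had 5 and 1 Sfrp1 UMIs in all.

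Dkk3, a divergent Dickkopf protein that does not bind Lrp6 as Dkk1 does, was highest in the subepithelial class at 75.4 and 67.5 CPM. The interval of the second class overlapped in both libraries: mesothelium-like cells in control (48.0 CPM) and fibroblast-like cells in maternal obesity (53.1 CPM). Among mesenchymal clusters in maternal obesity, fibroblast-like M6 had the highest Dkk3 level, at 79.4 CPM. Dkk3 was also an epithelial gene of 4 clusters: the Olfm4-led progenitor cluster E1 had 26.0 CPM (23.2 to 29.2) and 21.9 CPM (16.5 to 28.4), and E9, E10 and E11 had 22.9, 16.2 and 24.4 CPM in control. Sfrp2 shared the progenitor cluster, with 13.2 and 20.7 CPM in E1, from which 149 of 167 control and 53 of 59 maternal obesity epithelial Sfrp2 UMIs came. In the mesenchyme the unnamed cluster M15, led by Nts and Kdr and singled out after its values were seen, had 56.8 CPM (28.4 to 102) in control cells against 397 CPM (356 to 442) in maternal obesity cells, from 11 and 340 UMIs in 25 and 85 cells. Wif1 had its highest class level in the 39 and 35 endothelium-like cells, at 12.0 and 13.6 CPM. Of the 10 classes with at least 50 cells per library, ICC-like cells were highest in control, at 7.99 CPM. Glia-like cells, at 6.62 and 4.91 CPM, were highest of the 10 in maternal obesity. The enteroendocrine-like cluster E17 had 12.0 and 21.2 CPM of Wif1, from 12 UMIs in each library. Sfrp5 had 31 and 50 UMIs and Sfrp4 had 21 and 34.

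**Figure D4:**
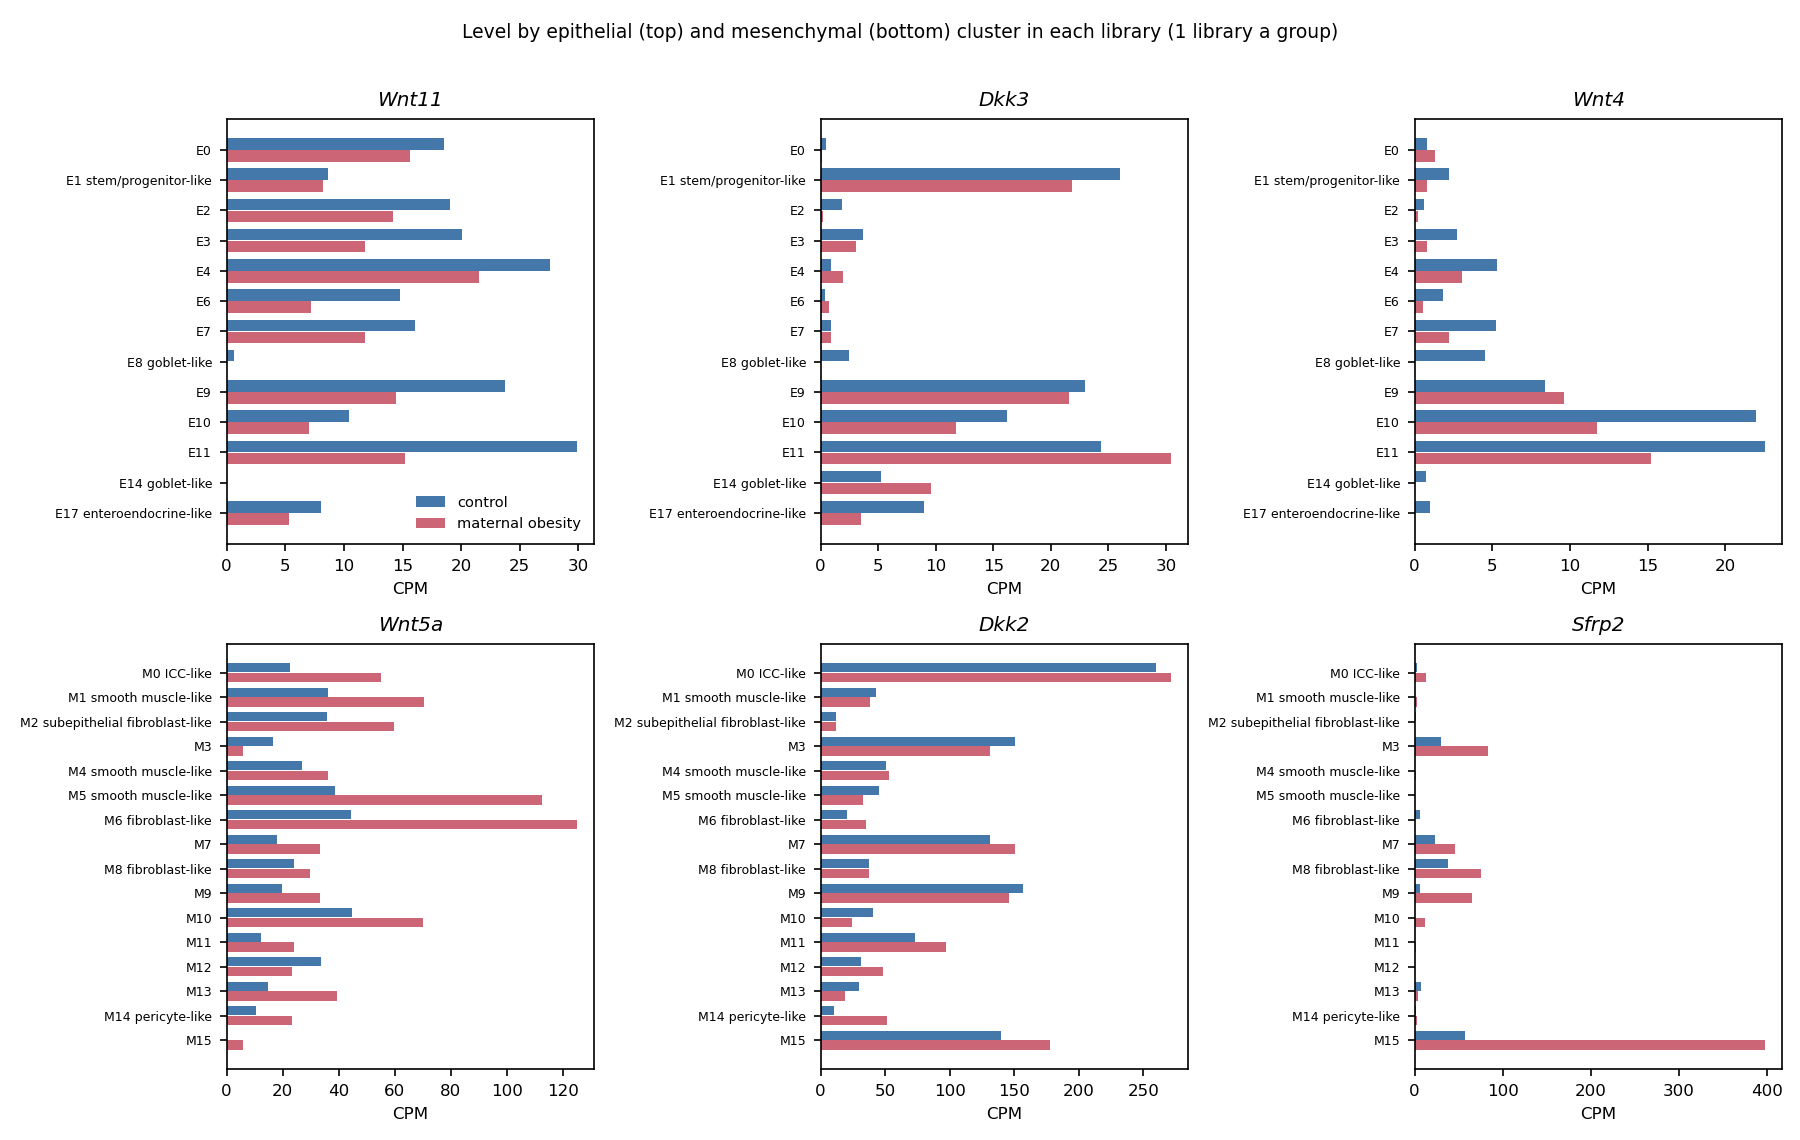
Levels in CPM of Wnt11, Dkk3 and Wnt4 over epithelial clusters (top) and of Wnt5a, Dkk2 and Sfrp2 over mesenchymal clusters (bottom), control beside maternal obesity. Bars are drawn without intervals. Wnt4 and Dkk3 have their highest epithelial levels in few clusters, Wnt5a peaks in M6 and M5 of maternal obesity, and Sfrp2 in M15.

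Highest class was compared between libraries to describe how far this map repeats. Over the 10 classes with at least 50 cells in each library, 24 members had enough UMIs, and 16 of them had the same highest class in both libraries. In 6 of the 16 the intervals of the highest and second class did not overlap in either library. The 8 that differed were Fzd1, Fzd2, Fzd9, Sfrp4, Wif1, Wnt2, Wnt5a and Wnt5b. With the 3 small classes added, mesothelium-like, pericyte-like and endothelium-like, the number fell to 12 of 24. The same counts were not made over all genes, so they cannot be called high or low for these members.

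For the comparison between libraries, a gene was called higher or lower when it had at least 20 UMIs over both libraries in a class and differed at least 1.5-fold in CPM. Of 95 member and class pairs with enough UMIs in 7 classes, 32 were called, and in 26 the counting interval of the ratio excluded 1. Those 26 comprised 21 higher and 5 lower in the maternal obesity library. All genes called by the fold also leaned higher in each of the 7 classes, for example 21.6% higher and 5.37% lower in ICC-like cells. In epithelial-like cells these shares were 12.0% and 11.6%. Shares of all genes with an interval excluding 1 were not computed, so the split of 21 to 5 is not read as particular to the members. The share of all genes called by the same rule was large in every class, so each count is given beside it. Depth, mitochondrial share and haemoglobin share also differed between the libraries, and their part in the differences was not tested.

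Wnt5a was the member that differed in most classes: it was higher in maternal obesity in all 6 classes where it had enough UMIs, and it had 2 and 6 UMIs in the remaining class, neuron-like cells. The ratio was 1.91 (1.65 to 2.21) in smooth muscle-like cells, 2.31 (1.59 to 3.47) in fibroblast-like cells and 2.44 (1.65 to 3.71) in ICC-like cells. It was 1.67 (1.02 to 2.88) in the subepithelial class, 1.78 (1.14 to 2.78) in epithelial-like and 2.86 (1.17 to 7.97) in glia-like cells, where levels were low. Its share of cells in smooth muscle-like cells was 29.1% and 44.2%, and 8.88% and 15.8% after thinning to 3000 UMIs. The epithelial-like ratio rests on 38 and 50 Wnt5a UMIs and the glia-like ratio on 7 and 21. Macrophage-like cells, the guide to free RNA, had 2 Wnt5a UMIs in each library, too few to show whether leaked Wnt5a differed. As a class, epithelial-like cells had levels near those of macrophage-like cells, and the part of free RNA in these ratios was not tested. Epithelial clusters were uneven, with 2.25 and 3.38 CPM in E3 and 2.07 and 3.07 CPM in E4. In E0 Wnt5a was at 0.821 and 0.330 CPM and in E2 at 0.623 and 0.222 CPM. Of the genes that process and carry Wnt proteins, Wls was called in none of 7 classes, with ratios from 0.980 to 1.42, and Porcn in 1 of 7, lower in fibroblast-like cells at 41.9 and 18.4 CPM. The receptor Ror2 was called in none of 5 classes, with ratios from 0.874 to 1.45, and Ryk was higher in 5 of 7. In fibroblast-like cells the interval of the Ryk ratio included 1 (0.945 to 2.68).

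Lrp6 was higher in maternal obesity in 4 of 7 classes: 1.90 times (1.48 to 2.45) in smooth muscle-like, 1.89 times (1.11 to 3.43) in fibroblast-like, 1.68 times (1.17 to 2.49) in ICC-like cells and 1.99 times (1.39 to 2.90) in glia-like cells. In ICC-like cells it stayed at least 1.5-fold in 8 of 11 alternatives, with a lowest ratio of 1.35. Its value exceeded control in 14 of 15 mesenchymal clusters. Lrp5 was called in none of 7 classes, with ratios from 0.970 to 1.41. Dkk2 was called in none of 4, with ratios from 0.941 to 1.15, and Fzd2 in none of 6, from 0.877 to 1.15. The plot of ratios by class shows these members on either side of the threshold.

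**Figure D5:**
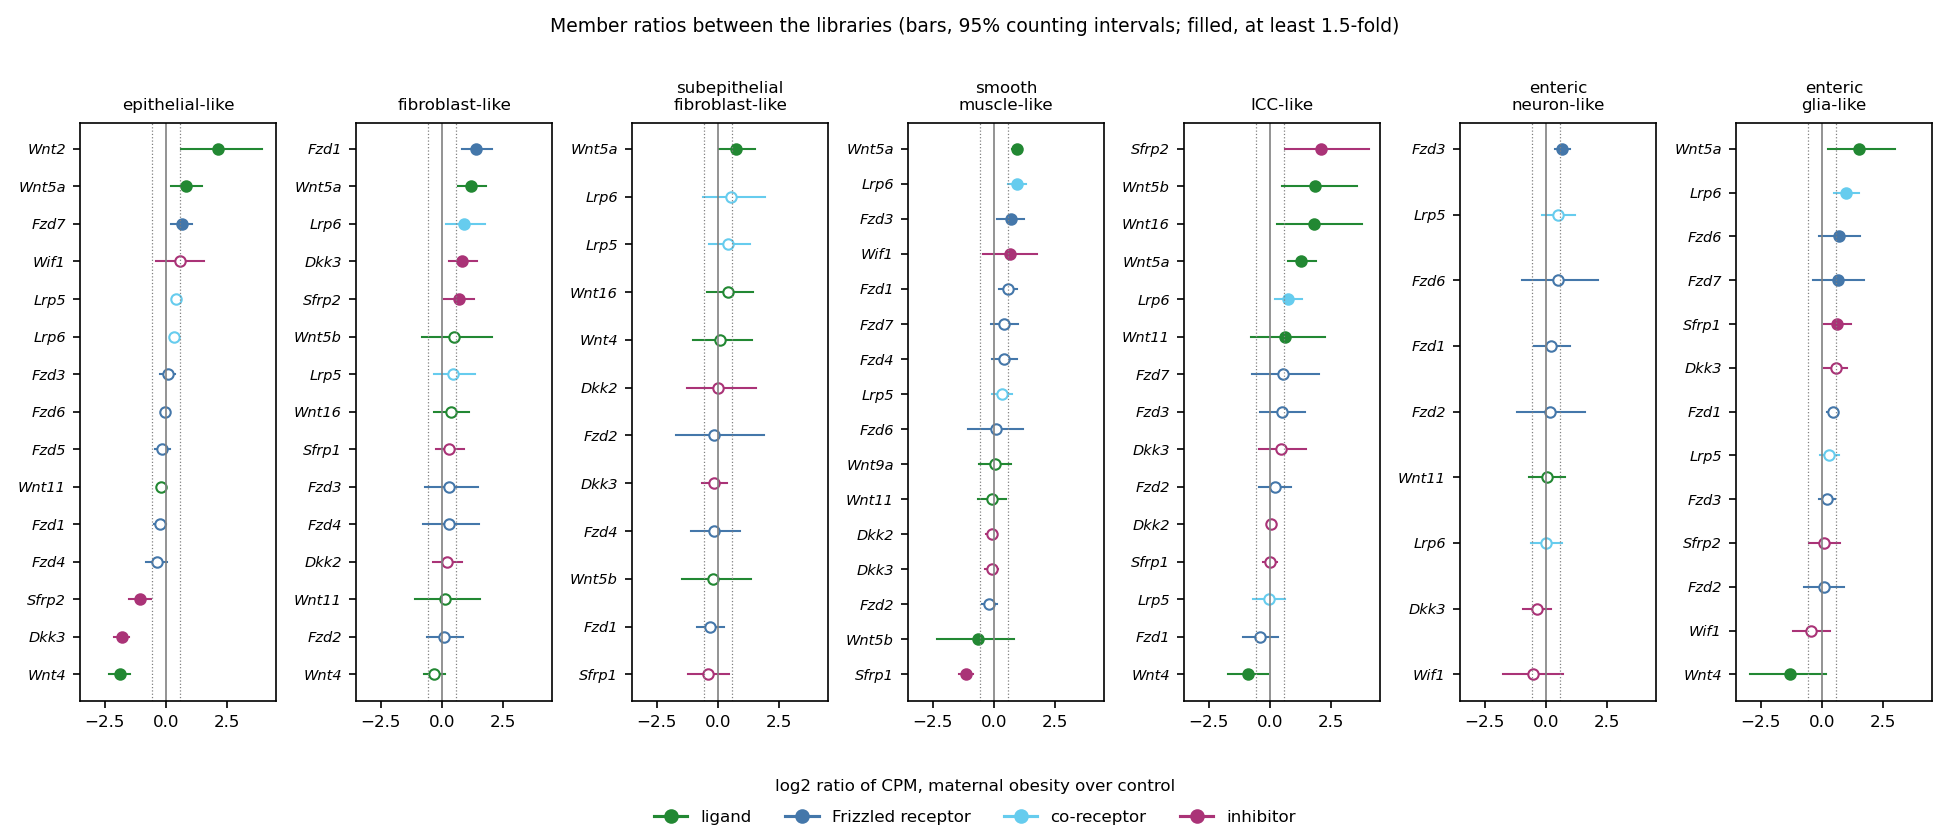
Ratio of maternal obesity to control CPM (log2 axis) for members with at least 20 UMIs in each of 7 classes, with exact conditional 95% intervals for counting error; filled points differ at least 1.5-fold. Wnt5a and Lrp6 lie at or right of 0 in every class where they are shown, and Dkk2 and Lrp5 stay short of 1.5-fold.

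In epithelial-like cells 3 members were higher and 3 lower in maternal obesity among 15 compared, 6 in all, while 23.7% of 13393 genes were called (12.0% higher and 11.6% lower). Lower were Wnt4 by 3.68-fold (2.74 to 5.02), Dkk3 by 3.51-fold (2.86 to 4.35) and Sfrp2 by 2.1-fold (1.55 to 2.87). The clusters that carried these genes had fewer cells in the maternal obesity library: E1 held 457 and 76 cells, E9 211 and 25, E10 203 and 15, and E11 142 and 9. E9 was led by Scgb1a1 and Sftpd, and E10 by Atp12a and Upk1b, genes that are not on the epithelial marker lists used here. Upk1b is on the mesothelium list. Relative to the other epithelial clusters, the mean log2 level in E10 was 0.969 for mesothelium markers and 0.933 for goblet markers. When the 9 clusters with enough cells were weighted equally, an alternative chosen after seeing the data, the ratio was 0.683 for Dkk3, 0.501 for Wnt4 and 1.00 for Sfrp2, so Dkk3 and Sfrp2 were no longer past the fold. Within E1, Dkk3 was at 26.0 and 21.9 CPM and Sfrp2 at 13.2 and 20.7 CPM. Higher were Wnt5a, Fzd7 at 1.56 times (1.15 to 2.12) and Wnt2 at 4.32 times (1.51 to 15.1), the last from 5 and 16 UMIs and short of 20 without its top cell in each library. Fzd7 was at 1.16 times when each cell weighed the same, and Wnt2 ranged from 2.25 to 16.8 times over 9 alternatives. The median log2 ratio was -0.03 over the members compared and 0.05 over all genes.

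Fibroblast-like cells had 5 members higher and 0 lower among 15, beside 28.2% of 9823 genes called (20.3% higher, 7.89% lower). They were Fzd1 at 2.66 times (1.79 to 4.11), Wnt5a, Lrp6, Dkk3 at 1.78 times (1.2 to 2.71) and Sfrp2 at 1.60 times (1.06 to 2.51). Cluster M6 held 64 control and 252 maternal obesity cells and M8 held 68 and 178, so M8 was the larger in control and M6 in maternal obesity. Fzd1, Wnt5a, Lrp6 and Dkk3 had the larger maternal obesity value in both clusters; Sfrp2 had it in 1, and 1 cell gave 11.6% of its UMIs. The count of members called was 8 when each cell weighed the same and 8 when the cell with most UMIs of a member was left out. In subepithelial fibroblast-like cells Wnt5a was the 1 member called among 12, beside 32.5% of 9018 genes (21.5% higher, 11.1% lower). That class rests on 88 control cells and 1 cluster, and the same 2 alternatives gave 3 and 4 members.

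Smooth muscle-like cells had 4 members higher and 2 lower among 16, beside 23.5% of 11428 genes called (18.1% higher, 5.43% lower). Sfrp1 was 2.20-fold lower (1.80 to 2.71) in maternal obesity and had the smaller value in all 3 smooth muscle-like clusters. Fzd3 was higher at 1.60 times (1.09 to 2.34), next to Wnt5a and Lrp6, and at 1.47 times with clusters weighted equally. Wif1 and Wnt5b were also past the fold, with 31 and 20 UMIs and intervals that included 1. The largest smooth muscle-like cluster was M1 in control, with 351 cells, and M4 in maternal obesity, with 211.

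ICC-like cells had 6 members higher and 1 lower among 15, beside 27.0% of 9864 genes called (21.6% higher, 5.37% lower). Besides Wnt5a and Lrp6, Wnt5b was higher at 3.59 times (1.41 to 11.7), Wnt16 at 3.52 times (1.23 to 13.8) and Sfrp2 at 4.24 times (1.52 to 16.4). Each of these 3 had 4 or 5 control UMIs, and 1 cell gave 17.9% of the Sfrp2 UMIs. Sfrp2 and Wnt5b fell short of 20 UMIs in ICC-like cells formed in 3 other ways (called doublets retained, finer clusters, or member and Wnt list genes used for clustering). Wnt4 was lower by 1.85-fold (1.05 to 3.25), from 26 and 29 UMIs, a difference that 2 other ways of forming the class did not keep (1.02 with called doublets retained, 1.08 with finer clusters). Wnt11, with 25 UMIs, was past the fold with an interval that included 1.

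Neuron-like cells had 1 member higher among 9, Fzd3 at 1.59 times (1.28 to 1.98), beside 21.6% of 10718 genes called (16.5% higher, 5.16% lower). Glia-like cells had 5 higher and 1 lower among 13, beside 23.0% of 10807 genes (18.8% higher, 4.11% lower). Of these, Wnt5a, Lrp6 and Sfrp1 at 1.55 times (1.05 to 2.30) had intervals that excluded 1, and Fzd6, Fzd7 and Wnt4 did not. Sfrp1 in glia-like cells stayed at least 1.5-fold in 7 of 11 alternatives, with a lowest ratio of 1.24. Median log2 ratios of the members compared were 0.33 in fibroblast-like, -0.14 in subepithelial, 0.21 in smooth muscle-like, 0.44 in ICC-like, 0.12 in neuron-like and 0.44 in glia-like cells. Over all genes of the same classes the medians were 0.05, 0.00, 0.11, 0.13, 0.07 and 0.11.

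Genes downstream of the receptors were examined as lists. By the same rule, the shares of all genes called higher were 12.0% in epithelial-like, 20.3% in fibroblast-like and 21.5% in subepithelial fibroblast-like cells. They were 18.1% in smooth muscle-like, 21.6% in ICC-like, 16.5% in neuron-like and 18.8% in glia-like cells. In this order of classes the shares called lower were 11.6%, 7.89%, 11.1%, 5.43%, 5.37%, 5.16% and 4.11%. These shares stand beside each list count below. List calls rest on the fold and the minimum of 20 UMIs alone, so some have counting intervals that include 1. The intracellular list (Dvl, Apc, Gsk3b, Ctnnb1, TCF and BCL9 genes and others, 15 of 16 in the table) had calls in all 7 classes. Ctnnb1, which encodes beta-catenin, was higher in maternal obesity in all 7 classes, with ratios from 1.96 to 2.68. In epithelial-like cells it was at 81.3 and 159 CPM and was the only gene of 14 called there. Gsk3b, the kinase that marks beta-catenin for degradation, was higher in 6 of 7 classes and Apc, its scaffold, in 5 of 7. In fibroblast-like cells 8 of 15 genes were higher, with a list median of 0.75 on the log2 scale. Among the 8, Dvl1 (3 and 21 UMIs) and Pygo1 (4 and 38 UMIs) had intervals that included 1. In neuron-like cells 9 of 15 were higher, with a median of 0.71. Smooth muscle-like cells had 7 of 15 higher, ICC-like cells 8 of 15 and glia-like cells 8 of 15, none of them lower, and the subepithelial class had 4 higher and 1 lower of 14.

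Target genes of beta-catenin signalling did not move one way in every class. Epithelial-like cells had 6 higher and 1 lower of 15, with a list median of 0.33 beside 0.05 over all genes. Higher were Axin2 (3.39 and 5.48 CPM), Nkd1 (0.967 and 2.61 CPM), Nkd2 (1.80 and 3.81 CPM) and Rnf43 (2.96 and 4.48 CPM), all feedback inhibitors of the pathway, together with Tcf7 and Cd44. Rnf43 stands in the R-spondin list as well. Tnfrsf19 was lower, at 1.42 and 0.870 CPM, and Lgr5, the crypt stem cell receptor, was at 2.48 and 3.12 CPM, short of a call. Myc was at 84.0 and 87.9 CPM in the epithelium, but was lower in fibroblast-like cells (239 and 154 CPM), ICC-like cells (99.6 and 43.3 CPM) and neuron-like cells (116 and 76.3 CPM).

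In the mesenchyme the target list was mixed. ICC-like cells had 4 of 9 higher, among them Axin2 at 7.27 and 15.9 CPM and the cyclin gene Ccnd1 at 8.72 and 29.96 CPM, and 2 lower. The subepithelial class had 3 of 9 higher, led by Nkd1 from 5 and 114 UMIs (9.93 and 40.9 CPM), and 2 lower, Axin2 and Cd44. Fibroblast-like cells had 3 higher and 2 lower of 9. Among the 3, Sox9 (0.939 to 2.83) and Apcdd1 (0.865 to 5.04) had ratio intervals that included 1. Smooth muscle-like cells had 2 higher and 0 lower of 12, with Nkd1 at 58.7 and 90.9 CPM. Neuron-like cells had 1 higher and 2 lower of 7, and glia-like cells 5 higher and 1 lower of 11. In glia-like cells Lef1, Tcf7 and Axin2 were at 4.74, 6.67 and 4.56 CPM in maternal obesity against 1.47, 2.39 and 2.39 CPM in control. The glia-like intervals of Axin2 (13 and 26 UMIs) and Cd44 (6 and 14 UMIs) included 1. Those of Lef1, Tcf7 and Ephb2 excluded 1.

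R-spondins, which stabilise Frizzled receptors at the surface by removing Rnf43 and Znrf3, were counted in mesenchymal classes and, for Rspo2, in neuron-like cells. In fibroblast-like cells Rspo3 was at 31.9 CPM in control cells against 66.2 CPM in maternal obesity, a ratio of 2.08 (1.43 to 3.11), and all 3 genes of the list with enough UMIs were higher; the other two, Rspo2 and Lgr4, had 2 and 1 control UMIs. Smooth muscle-like cells had Rspo3 at 27.3 and 30.1 CPM. Among receptors and polarity genes outside the member list, 1 of 12 was higher in epithelial-like cells (Prickle2) and 2 were lower: Ror1 by 2.56-fold, and Celsr1, a cadherin of planar polarity, by 3.92-fold, at 3.51 and 0.896 CPM. Prickle2 was higher in 6 of 7 classes.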

How the data were processed

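The authors deposited raw gene counts per barcode, as UMI counts not normalized, per the file headers and values. The file headers give cellranger 6.1.2, whereas Cell Ranger 2.1.1 stands in the submitters' processing notes. The genome build and annotation were not given in the sources used here. Filtering at 500 genes or more and no more than 20% of UMIs from mitochondrial genes left 6879 and 7236 barcodes, and Scrublet removed 49 and 153 doublets, 0.712% and 2.11% where loading predicts 7.12% and 7.77%, so doublets may remain. UMIs were summed per symbol. Cells were clustered with scanpy 1.11.5 (Leiden, resolution 1, 2000 variable genes without members or Wnt pathway genes) in Python 3.11.15, with no adjustment between libraries, and epithelial and mesenchymal cells were clustered again. Clusters were named from fixed marker lists, but the naming rule was set after the clusters were seen; 786 and 607 cells were set aside as mixed or of low depth, and 144 and 249 non-mesenchymal cells stayed unnamed.

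Summed UMIs gave CPM with exact Poisson intervals, and ratios with exact conditional binomial intervals; both cover counting error only, and the ratio step was checked on simulated data. Shares of cells were thinned to 3000 UMIs where stated, so that shallower cells (448 in control, 221 in maternal obesity over the 7 main classes) were not counted. Members with at least 100 UMIs were named with their highest class, ratios were named where they were at least 1.5-fold, had at least 20 UMIs and an interval excluding 1, and pathway lists by their highest genes and called targets. The members and lists were chosen with earlier results of these data known, and clusters cited by number were chosen after their values were seen. The alternatives tried are given in the closing section.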

Additional observations from a re-analysis of the deposited data

Results flagged for a closer look

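Called ratios of 3 members pointed in opposite directions in different classes of the same 2 libraries. Whether the classes differ was not tested, since there was 1 library per group.

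Dkk3 had a maternal obesity to control ratio of 0.285 in epithelial-like cells and of 1.78 in fibroblast-like cells. Sfrp1 had a ratio of 0.455 in smooth muscle-like cells and of 1.55 in glia-like cells, where the ratio stayed at least 1.5-fold in 7 of 11 alternatives (lowest 1.24). Sfrp2 had a ratio of 0.477 in epithelial-like cells, 1.60 in fibroblast-like cells and 4.24 in ICC-like cells. With clusters weighted equally the Sfrp2 ratio was 1.00 in epithelial-like and 0.508 in fibroblast-like cells, the opposite direction in the latter. The epithelial Dkk3 ratio was 0.683. In the epithelium that weighting left out E10 and E11, and with 0.5 UMI added to every count its Sfrp2 value rests largely on clusters with few Sfrp2 UMIs. Progenitor cluster E1, one of the clusters that carried Dkk3 and Sfrp2, held 457 and 76 cells, and its part in the epithelial ratios was not tested. The smooth muscle-like value of Sfrp1 was below 1 in each of 3 clusters.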

How the results depend on the processing

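Results were recomputed under 12 other settings, 2 of them chosen after seeing the data. Of 274 recomputed ratios of the 26 named pairs, 257 stayed within their counting interval and in direction, 13 moved and 4 reversed. A ratio counted as reversed when it fell on the other side of 1, however close to it. The reversed ratios of Wnt4 in ICC-like cells were 1.02 with called doublets kept and 1.08 at Leiden resolution 2. Those of Sfrp2 with clusters weighted equally were 1.00 in epithelial-like cells, which is no difference, and 0.508 in fibroblast-like cells. With each cell's CPM averaged, the members called were 8 in fibroblast-like cells and 3 in subepithelial fibroblast-like cells, against 5 and 1. Leaving out the cell with most UMIs of a member gave 8 and 4. The number called ran from 5 to 7 in epithelial-like cells and from 4 to 6 in smooth muscle-like cells, and that of members with the same highest class from 12 to 19. Sfrp2 and Wnt5b in ICC-like cells gave no ratio in 3 settings that changed the clustering, for want of 20 UMIs, and with a minimum of 50 UMIs 21 of the 26 ratios could be computed. Wnt5a in ICC-like cells had its lowest ratio, 1.53, at resolution 2. The cause of these shifts was not tested. No paired analysis was possible because the libraries share no replicate number and each group has 1 library. Depth limits the sparse members: a class at 0 UMIs allows up to 3.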

Other observations

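Wnt2, a mesenchymal ligand in other organs, was counted mainly in erythroid-like cells of the control library, with 25 of its 32 control UMIs in 16 of 110 cells (12.6 CPM, interval 8.14 to 18.6). The 388 erythroid-like cells of the maternal obesity library had 7 Wnt2 UMIs in 5 cells (0.880 CPM). The difference in the highest class of Wnt2 between libraries rests on these values.

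Wnt7b, an epithelial ligand of lung and bladder, had 19 UMIs in control epithelial-like cells, of which 8 were in cluster E11 and 6 in E10, and 0 in maternal obesity cells of the class, where those clusters held 9 and 15 cells. Wnt3 had 10 of its 15 maternal obesity UMIs in the defensin-led epithelial cluster E6.

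RefSeq lists 4 pairs of neighbouring ligand genes among the members. Wnt3a and Wnt9a had 0 and 199 UMIs over both libraries, Wnt9b and Wnt3 had 2 and 29, Wnt10b and Wnt1 had 3 and 2, and Wnt6 and Wnt10a had 21 and 8.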
